A study of Mus musculus with 6 samples.

Results

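The enzymes that break down glucose in resting splenic CD8+ T cells (CD8-TC) were compared between mice that lacked the transcription factor Runx3 and wild type (WT) mice. The 39 genes were a given list: the glucose transporters and enzymes of glycolysis, lactate dehydrogenase, pyruvate dehydrogenase with its kinase, the tricarboxylic acid (TCA) cycle and the pentose phosphate pathway. Of these, 35 had an array probe set annotated to them alone and 34 were bright enough to be tested, out of 19938 genes with such a probe set and 9924 tested in the whole series. No probe set in the annotation used carried the name Gpi1, Eno1 or G6pdx alone. Gapdh was carried only by probe sets shared with other genes, and Aldoc lay below the filter (means of 3.00 in Runx3-/- and 3.17 in WT CD8-TC).

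The samples were 3 Runx3-/- and 3 WT (Runx3 +/+) CD8-TC preparations, each from 1 male mouse of the outbred ICR stock, 6 weeks old. The cells were freshly isolated and not stimulated, and their total RNA was read on Affymetrix mouse Gene 1.0 ST arrays, which cover whole transcripts. Runx3 was missing from the whole animal, so that cells other than CD8-TC lacked it too. By the labels, magnetic beads against CD8 yielded the WT cells at over 95% purity, while Runx3-/- cells went through the same beads and then a FACS sort against dendritic cells with CD11c and CD8. Another label speaks of sorting for every sample. If only Runx3-/- cells were sorted, purification and genotype cannot be told apart in these 6 arrays.

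As background, glycolysis splits glucose into pyruvate in the cytosol, and lactate dehydrogenase interconverts pyruvate and lactate. Pyruvate dehydrogenase instead carries pyruvate into the mitochondrial TCA cycle, and the pentose phosphate pathway branches off early to make NADPH and ribose phosphate. Resting T cells are known to live mainly on mitochondrial oxidation, whereas activated T cells switch to aerobic glycolysis with lactate output, a switch in which Myc has a known part. All levels below are the deposited log2 values, so that a difference of 1 is a 2-fold change. Differences are Runx3-/- minus WT, and a gene was called where limma's adjusted p over all 9924 genes was under 0.05.

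The labels were checked on 3 genes. The Runx3 probe set (10509030) read 7.06, 7.17 and 7.64 in Runx3-/- arrays and 7.09, 7.30 and 6.99 in WT arrays, a difference of 0.16 ± 0.16 (SE, limma adjusted p = 0.559), and without Runx3-/- replicate 3 its sign turned, to -0.012. Where this probe set lies relative to the deletion is unknown here, so that its level checks nothing. Cd4, which Runx3 is known to silence in CD8-TC, was higher by 2.57 (adjusted p = 2.36e-05) and Itgae, the integrin CD103, was lower by 2.61 (difference -2.61, adjusted p = 9.91e-05) in Runx3-/- cells. Markers of T cells did not pass the test in either direction (0 of 7, summarised as array means of 9.96 to 10.18 in Runx3-/- and 9.82 to 10.1 in WT CD8-TC). Markers of other cells were lower in Runx3-/- arrays: 9 of 9 for B cells (list means 4.12 to 4.37, against 6.43 to 7.11 in WT), 12 of 12 for macrophages and monocytes (4.20 to 4.96, against 7.18 to 7.41 in WT), and 5 of 6 for erythroid cells (4.10 to 4.17, against 5.70 to 6.44 in WT). Of dendritic cell markers 2 of 7 were lower (6.12 to 6.98, against 6.99 to 7.94 in WT), of neutrophil markers 2 of 3 (2.96 to 3.38, against 3.56 to 4.49 in WT), and of cell cycle genes 0 of 6 (5.81 to 6.53, against 6.16 to 6.68 in WT). All 3 neutrophil, 3 of the erythroid and 2 of the B cell markers passed the filter through WT arrays only, so that no other direction was possible for them. Fewer cells of a type and less RNA per cell cannot be told apart in such bulk samples, and the part of these other cells in the results below was not tested unless a value is given there.

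In Runx3-/- CD8-TC, the lactate dehydrogenase gene Ldha was higher, and 4 enzymes of lower glycolysis, isocitrate oxidation and the pentose phosphate pathway were lower. Ldhb was called higher too, but it passed the filter through Runx3-/- arrays only and could be called in no other direction, and its own-locus probe set was too dim to test. Thus 6 of the 34 tested genes were called (17.6%), where 11.6% of all tested genes were. Higher were Ldha and Ldhb (2 of 34, against 5.63% of all genes), and lower were Pgam1, Idh1, Idh3a and Taldo1 (4 of 34, against 6% of all genes). The other 28 did not pass. The 3 Runx3-/- arrays did not overlap the 3 WT arrays for 18 of the 34 genes (7 higher, 11 lower), a property of 33.6% of all tested genes (17.4% higher and 16.2% lower). The median difference over the 34 genes was -0.09, with 11 differences above 0 and 23 below (67.6% below, against 48.9% of all tested genes), and over all tested genes it was 0.01.

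These differences were small. Idh1 and Pdk1 alone differed by 1.5-fold or more, and for 22 of the 34 genes the 95% interval of the difference lay wholly within 1.5-fold (73.9% of all tested genes). A rule of 1.5-fold with an unadjusted p under 0.05, the size and p stated in the study's methods, kept Idh1 only (1 of 34, against 8.07% of all genes). Unadjusted p-values under 0.05 were found for 17 of the 34 genes (8 higher, 9 lower), against 27.7% of all tested genes. With 3 arrays per genotype the count of 6 also rested on each array. It was 1 without WT replicate 1, WT replicate 2, Runx3-/- replicate 1 or Runx3-/- replicate 3, it was 2 without Runx3-/- replicate 2, and it was 4 without WT replicate 3. Taldo1 was called in each of these 6 fits.

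**Figure D1:**
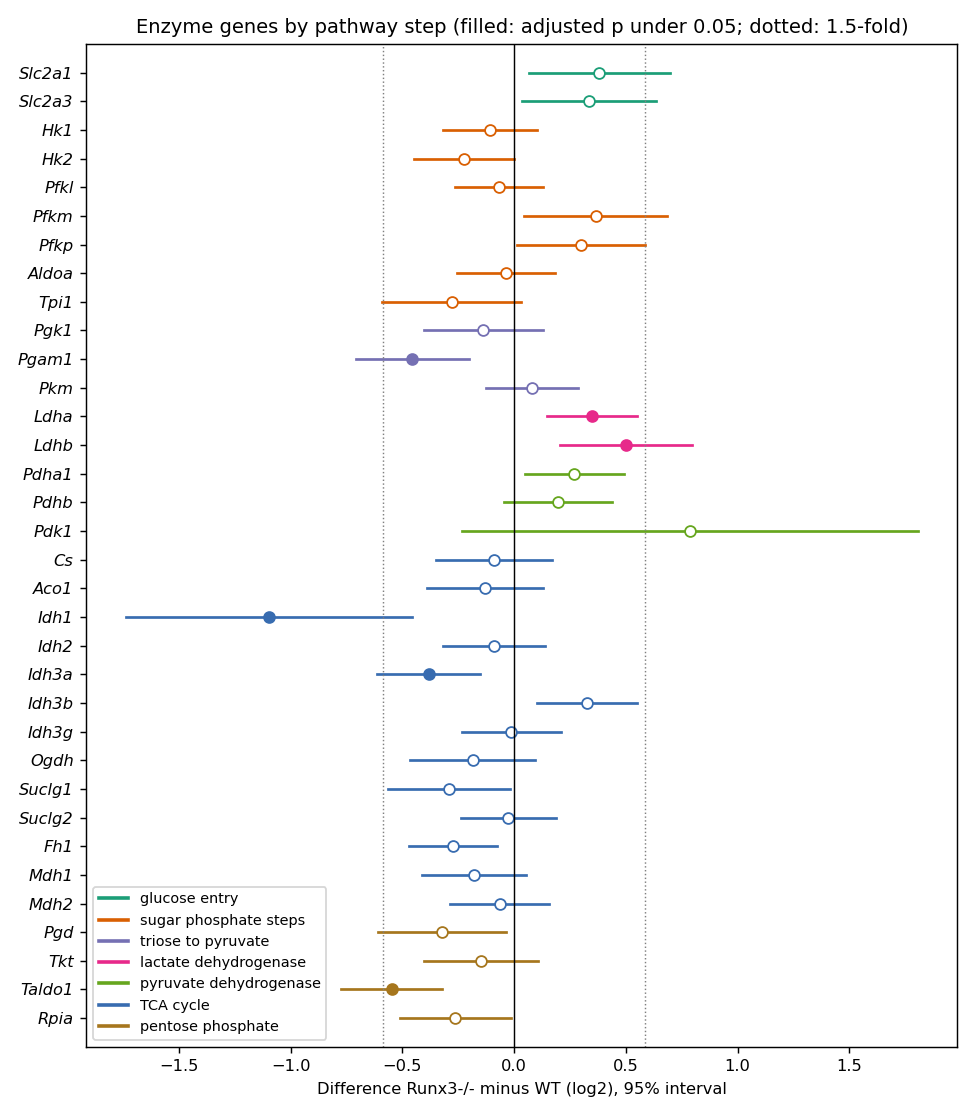
Difference of each tested gene between Runx3-/- and WT CD8-TC (log2 scale, horizontal axis; points are limma estimates, bars 95% intervals, 3 arrays per genotype), grouped by pathway step. Filled points are the 6 called genes and dotted lines mark 1.5-fold; lactate dehydrogenase and pyruvate dehydrogenase genes lie right of 0, while 12 of 13 TCA cycle genes and all 4 pentose phosphate genes lie left of it.

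**Figure D2:**
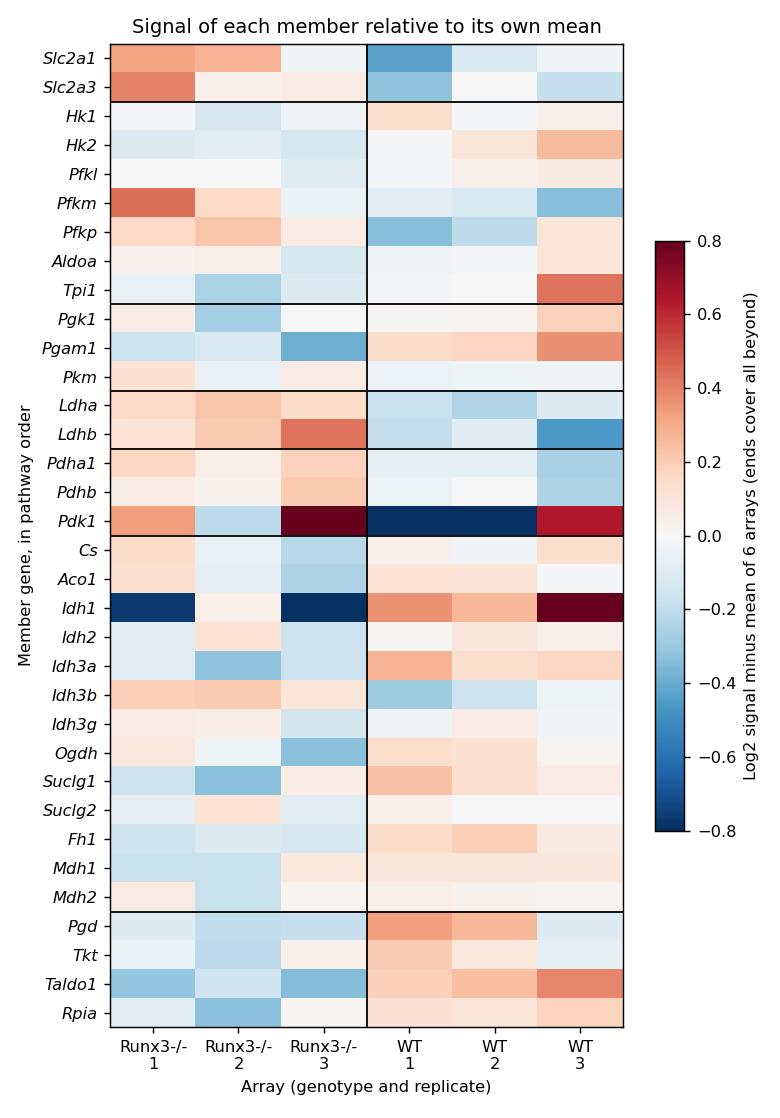
Level of each tested gene in each array as a deviation from its mean over the 6 arrays (log2 scale, colours end at 0.8 in either direction), with Runx3-/- replicates left of WT replicates. Taldo1, Pgam1 and Idh3a are uniformly lower in the 3 Runx3-/- arrays, whereas Idh1 and Pdk1 also vary between arrays of 1 genotype.

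The promoters of called genes are shown because Runx3 binds DNA at a short motif and Myc at the E-box, and the letters of both can be looked up. RefSeq's promoter windows (GRCm38.p6, 250 bases before to 50 after the start site, the first one upstream where several are listed) were matched to 37 of the 39 genes by symbol, Slc2a3 and Idh3a not among them. The RUNX letters searched were TGTGGT with its variant TGTGGC, together with the form TGCGGT and its variant TGCGGC, on both strands, and the E-box letters were CACGTG, which read the same on both strands. A RUNX match was found in 19 of the 37 windows (51.4%, against 45.3% of all 27025 windows) and an E-box in 2 of 37 (5.41%, against 7.24%). Of the 5 called genes with a window, 2 held a RUNX match and 1 an E-box. Of 6 called further genes with a window, described below, 1 held a RUNX match (Eno2) and 1 an E-box (Slc16a1). The windows of 4 called genes follow, 5′ to 3′ in the direction of the gene, with RUNX matches in capitals for Pgam1 and Idh1 and E-boxes in capitals for Ldha.
Taldo1 (chr7:141391910-141392209, + strand): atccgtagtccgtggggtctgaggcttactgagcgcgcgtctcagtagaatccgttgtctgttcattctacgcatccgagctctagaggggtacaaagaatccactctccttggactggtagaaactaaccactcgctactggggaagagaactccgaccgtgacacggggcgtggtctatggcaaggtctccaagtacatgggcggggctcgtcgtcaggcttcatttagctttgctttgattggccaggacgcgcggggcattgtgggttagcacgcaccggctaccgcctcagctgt
Pgam1 (chr19:41911621-41911920, + strand): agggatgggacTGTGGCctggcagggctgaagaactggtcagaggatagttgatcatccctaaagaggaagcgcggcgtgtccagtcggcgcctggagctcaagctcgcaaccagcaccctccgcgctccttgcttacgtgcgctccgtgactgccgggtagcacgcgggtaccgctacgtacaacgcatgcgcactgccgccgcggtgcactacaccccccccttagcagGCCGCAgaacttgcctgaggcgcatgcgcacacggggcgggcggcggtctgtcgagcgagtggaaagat
Idh1 (chr1:65186430-65186729, - strand): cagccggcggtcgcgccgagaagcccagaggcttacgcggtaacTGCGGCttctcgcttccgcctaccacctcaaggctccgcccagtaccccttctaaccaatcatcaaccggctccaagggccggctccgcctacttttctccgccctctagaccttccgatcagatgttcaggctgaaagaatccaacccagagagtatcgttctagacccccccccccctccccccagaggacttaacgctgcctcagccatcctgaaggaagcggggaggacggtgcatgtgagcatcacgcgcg
Ldha (chr7:46845554-46845853, + strand): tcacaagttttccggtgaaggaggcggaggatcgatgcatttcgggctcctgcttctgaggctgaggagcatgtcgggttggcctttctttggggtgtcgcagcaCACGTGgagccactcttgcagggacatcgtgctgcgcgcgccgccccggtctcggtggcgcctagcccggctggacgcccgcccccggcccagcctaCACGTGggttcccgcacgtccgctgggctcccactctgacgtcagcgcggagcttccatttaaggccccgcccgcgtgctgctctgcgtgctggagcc
Taldo1 had neither motif in this window. Pgam1 had 2 RUNX matches, whose first bases lay 239 and 19 bases before the start site (the nearer one on the opposite strand, so that its complement is printed), Idh1 had 1 at 206 bases before it, and Ldha had 2 E-boxes at 145 and 48 bases before it. None of these matches overlapped another. A match describes letters only, and binding was not measured in these files.

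At glucose entry 0 of 2 transporters passed the test (2 at an unadjusted p under 0.05), although both had higher means in Runx3-/- cells. Slc2a1 encodes GLUT1, the transporter that activated T cells are known to raise, and Slc2a3 encodes GLUT3. Slc2a1 read 7.35, 7.31 and 7.01 in Runx3-/- arrays and 6.60, 6.91 and 7.01 in WT arrays. The lowest Runx3-/- and the highest WT array were equal at this precision, and the difference was 0.38 ± 0.14 (SE; limma adjusted p = 0.115). Slc2a3 averaged 7.43 ± 0.20 in Runx3-/- and 7.10 ± 0.16 in WT CD8-TC (SD, n = 3 each), with arrays that did not overlap and a difference of 0.33 ± 0.13 (limma adjusted p = 0.139).

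In the sugar phosphate steps, from hexokinase to triose phosphate isomerase, 0 of 7 tested genes were called and the median difference was -0.07. At an unadjusted p under 0.05 there were 3, namely Pfkm and Pfkp with higher and Hk2 with lower means in Runx3-/- cells. The 3 phosphofructokinase genes, whose enzyme commits sugar to glycolysis, did not share a direction: the differences were 0.36 for Pfkm, 0.30 for Pfkp and -0.07 for Pfkl. Pfkm, the muscle type subunit, had the lowest p. It read 5.06, 4.78 and 4.57 in Runx3-/- arrays and 4.54, 4.49 and 4.28 in WT arrays, close together but not overlapping (difference 0.36 ± 0.14, limma adjusted p = 0.132). Pfkp, the platelet type subunit, read 8.62, 8.69 and 8.53 in Runx3-/- arrays and 8.12, 8.26 and 8.56 in WT arrays. Its WT replicate 3 lay at the level of the Runx3-/- arrays, and without it the difference of 0.30 (adjusted p = 0.163) became 0.42 (adjusted p = 0.049). Leaving out that array could only widen the difference, so that this fit is no support for a rise. Without any other single array Pfkp was not called (adjusted p up to 0.405). Hk2, the inducible hexokinase, differed by -0.22. Its means of 3.58 in Runx3-/- and 3.81 in WT CD8-TC lay near the array medians of 3.45 to 3.53. Tpi1 differed by -0.28 and Aldoa, the main aldolase of lymphoid cells, by -0.04. The sign for Aldoa turned without WT replicate 3 (0.00044) or Runx3-/- replicate 3 (0.022).

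Hk1, the constitutive hexokinase, depended on which probe set stood for it. The brightest one annotated to it alone (10414661) averaged 11.60 ± 0.070 in Runx3-/- and 11.71 ± 0.079 in WT CD8-TC (SD, n = 3 each). Of the 20 probe sets numbered nearest to it, 0 belong to genes of the chromosome that carries Hk1, and 16 further probe sets that name Hk1 all name the ribosomal protein gene Rpl17 as well. A second Hk1 probe set (10369541), whose 20 numbered neighbours all lie on that chromosome, read 7.02, 6.87 and 6.88 in Runx3-/- arrays and 6.74, 6.80 and 6.68 in WT arrays. These groups did not overlap, and the difference was 0.19 ± 0.092 (limma adjusted p = 0.235), against -0.11 ± 0.092 (adjusted p = 0.484) on the brightest. The sign for Hk1 is therefore set by the choice of probe set, and neither passed the test.

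From triose phosphate to pyruvate, 1 of 3 tested genes was called (33.3%, against 11.6% of all tested genes). Pgam1, phosphoglycerate mutase, moves the phosphate of 3-phosphoglycerate within the molecule and is the form most tissues use. It read 6.55, 6.60 and 6.33 in Runx3-/- arrays and 6.86, 6.89 and 7.09 in WT arrays. Every Runx3-/- array was below every WT array, and Pgam1 fell by 0.46 on the log2 scale (difference -0.46 ± 0.11, limma adjusted p = 0.0347), or 1.37-fold. On the probe set whose neighbours lie on its own chromosome (10463168) the difference was -0.48 ± 0.10 (adjusted p = 0.022). The call was lost when any 1 array was left out (adjusted p from 0.06 to 0.0966), while the difference stayed between -0.51 and -0.37.

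The kinases on either side of Pgam1 were not called. Pgk1, which makes the first ATP of glycolysis, read 8.87, 8.53 and 8.81 in Runx3-/- arrays and 8.81, 8.82 and 8.99 in WT arrays. The groups overlapped, and the difference was -0.14 ± 0.12 (limma adjusted p = 0.487). Pkm, pyruvate kinase, averaged 8.24 ± 0.092 in Runx3-/- and 8.16 ± 0.0089 in WT CD8-TC (difference 0.08, 95% interval -0.13 to 0.28). Gapdh could be read only through 25 probe sets that also name other genes, of which 20 held distinct values. Their median per array was 10.99, 10.80 and 10.62 in Runx3-/- arrays and 10.67, 10.69 and 10.82 in WT arrays. These medians overlapped, and each of the 25 probe sets had a higher mean in Runx3-/- cells, by 0.065 to 0.12.

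Both lactate dehydrogenase genes were called higher, with Ldhb subject to the limit given above. Ldha encodes the A subunit, the form that predominates in glycolytic tissues, and Ldhb the B subunit, the form of the heart. Ldha (10553301) read 9.43, 9.50 and 9.43 in Runx3-/- arrays and 9.10, 9.04 and 9.17 in WT arrays. The arrays of each genotype were close to each other and well apart from the other genotype, and Ldha rose by 0.35 ± 0.088 (SE, limma adjusted p = 0.0392), or 1.27-fold. Leaving out any 1 array kept the difference between 0.31 and 0.38, with adjusted p from 0.0534 to 0.115, and with each array centred on its median Ldha was likewise not called, at a difference of 0.33. Its promoter window, with 2 E-boxes, is printed above.

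The call for Ldhb was weaker in its basis. The probe set used (10462035) read 3.58, 3.68 and 3.90 in Runx3-/- arrays and 3.28, 3.37 and 3.01 in WT arrays, a rise of 0.50 ± 0.13 (limma adjusted p = 0.0426). These levels lay near the array medians of 3.45 to 3.53, which the gene reached in 3 Runx3-/- and 0 WT arrays. It thus passed the filter only through the genotype in which it was high and had to differ. The probe set whose neighbours lie on the chromosome of Ldhb (10549097) read 3.20, 3.29 and 3.36 in Runx3-/- arrays and 3.16, 2.69 and 3.03 in WT arrays, below the filter in all 6, with a difference of 0.32 that was not tested. The call was lost when any 1 array was left out (adjusted p from 0.051 to 0.121), and also without a filter or with array weights.

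**Figure D3:**
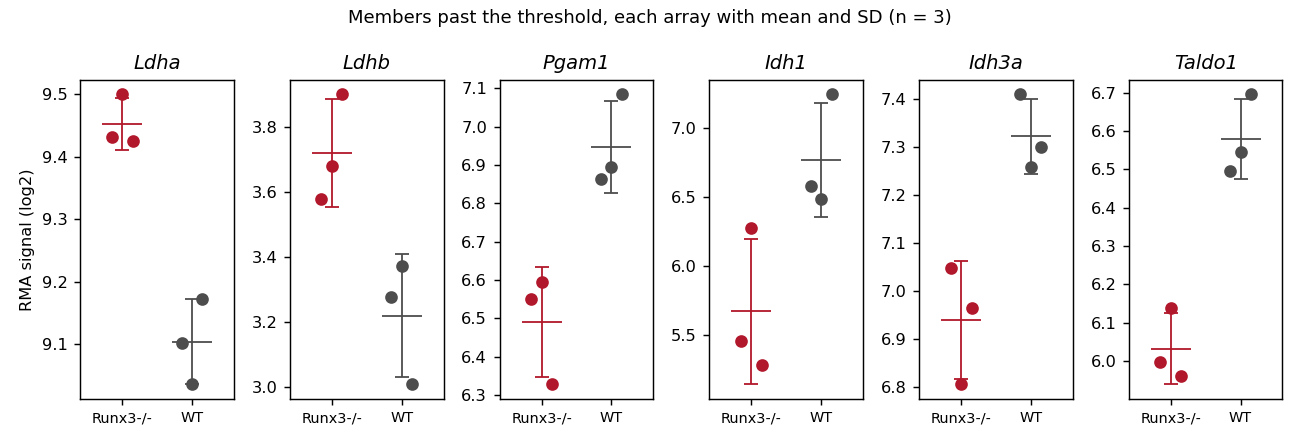
Deposited log2 level of each of the 6 called genes in every array (points), with the mean of each genotype (line), Runx3-/- left of WT. The vertical axis differs between panels and does not start at 0; in all 6 panels the 3 Runx3-/- arrays lie on one side of the 3 WT arrays, with the closest approach for Ldhb (3.58 in Runx3-/- replicate 1 and 3.37 in WT replicate 2).

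**Figure D4:**
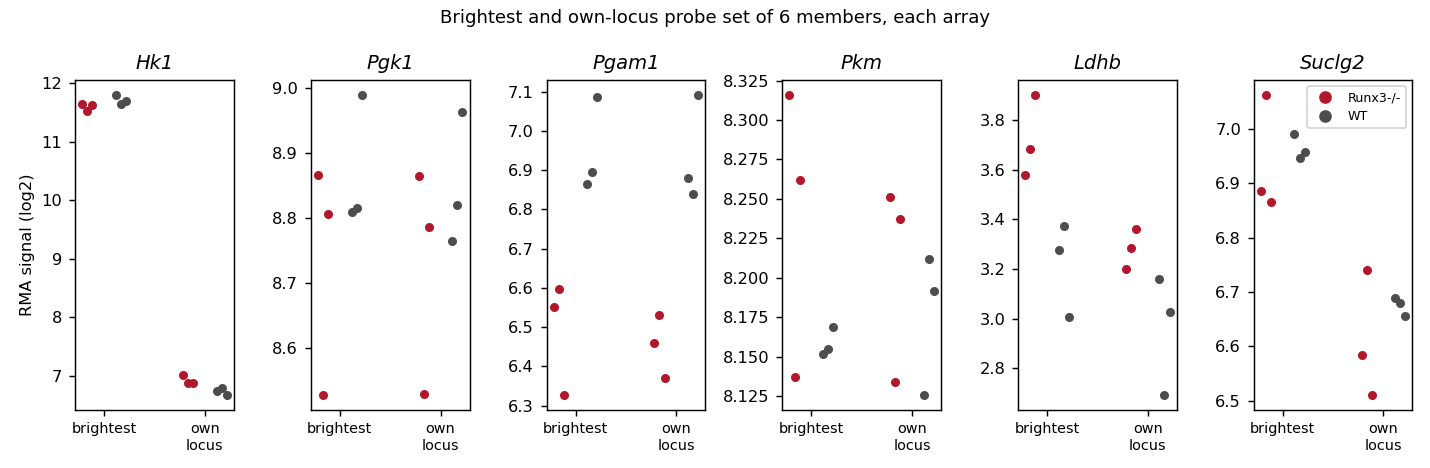
Level (log2) in every array of the brightest probe set and of the probe set whose numbered neighbours lie on the gene's own chromosome, for the 6 genes in which these differ, with Runx3-/- left of WT. Pgam1 shows the same separation on both, Hk1 lies at 11.60 and 11.71 on the brightest but at 6.92 and 6.74 on the other (means of Runx3-/- and WT), and Ldhb is low on both.

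At the entry of pyruvate into the mitochondrion, 0 of 3 genes were called (1 at an unadjusted p under 0.05), and all 3 had higher means in Runx3-/- cells (median difference 0.27). Of 9 further genes tested around this step, 6 had lower and 3 higher means (median difference -0.05). The lower ones included the other complex genes Dlat (-0.16), Pdhx (-0.13) and Dld (-0.05), the carrier Mpc1 (-0.26) and the kinase Pdk3 (-0.26), none of them called. Pdha1, the catalytic subunit of pyruvate dehydrogenase, read 8.52, 8.40 and 8.54 in Runx3-/- arrays and 8.28, 8.28 and 8.09 in WT arrays. The groups did not overlap, and the difference of 0.27 ± 0.097 had a limma adjusted p of 0.114. Pdhb, its partner subunit, differed by 0.20 (95% interval -0.04 to 0.44), again without overlap.

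Pdk1 encodes a kinase that switches pyruvate dehydrogenase off and is known as a target of hypoxia signalling. It is described here after its values were seen, because 1 array decided its call. It read 6.59, 6.05 and 7.31 in Runx3-/- arrays and 5.27, 5.43 and 6.90 in WT arrays. Replicate 3 was the highest array in both genotypes, and WT replicate 3 stood above 2 of the Runx3-/- arrays. The difference was 0.79 ± 0.45 (adjusted p = 0.294) over all arrays and 1.30 (adjusted p = 0.0332) without WT replicate 3. Without both WT replicate 3 and Runx3-/- replicate 2, the arrays with the highest dendritic cell marker mean in their genotype, it was 1.60 (adjusted p = 0.00674). For Pdk1 itself these were the highest WT and the lowest Runx3-/- array. Leaving them out could only widen the difference, so that this fit is no support for a rise.

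In the TCA cycle and its cytosolic counterparts, 2 of 13 genes were called and both were lower (15.4%, against 11.6% of all tested genes in either direction). The median difference was -0.13, and 12 of the 13 differences were below 0, with Idh3b the exception, where 48.9% of the differences of all tested genes were below 0. The gene with the greatest difference was Idh1, the isocitrate dehydrogenase of cytosol and peroxisomes, which makes NADPH outside the mitochondrion. It read 5.45, 6.27 and 5.28 in Runx3-/- arrays and 6.58, 6.48 and 7.24 in WT arrays. Idh1 fell by 1.10 on the log2 scale (difference -1.10 ± 0.28, 95% interval -1.74 to -0.46, limma adjusted p = 0.0405), or 2.14-fold, but the spread within each genotype was wide. Its promoter window with 1 RUNX match is printed above.

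Idh1 shared its highest array in each genotype with the dendritic cell markers, and in WT also the order of the other arrays. In Runx3-/- cells the order of replicates 1 and 3 was reversed between them. The mean of those 7 markers was 6.12, 6.98 and 6.20 in Runx3-/- replicates 1 to 3 and 7.04, 6.99 and 7.94 in WT replicates 1 to 3, so that Runx3-/- replicate 2 and WT replicate 3 were highest in both measures. Among them Itgax, which encodes the CD11c used in the sort, was highest in the same arrays (5.36 in Runx3-/- replicate 2 and 6.83 in WT replicate 3). Runx3-/- replicate 2 and WT replicate 3 were each the highest of their genotype for 9 of the 34 genes (26.5%), Ldha, Pgam1 and Taldo1 included, against 14.1% of all tested genes. Without these 2 arrays, leaving 2 per genotype, Idh1 differed by -1.16 (adjusted p = 0.00219). For Idh1 itself these were the arrays furthest from the others of their genotype. Leaving them out had to narrow its spread, so that the low adjusted p of this fit is no support for a fall. Leaving out 1 array at a time, Idh1 was called without Runx3-/- replicate 2 only (-1.40, adjusted p = 0.0146), and the other 5 fits gave -1.24 to -0.86. With a looser filter, no filter, an intensity trend in the variances, a replicate block or unmoderated variances Idh1 was not called either. It was called under 8 of the 18 alternatives that use the adjusted p (adjusted p from 0.00219 to 0.216). The part of dendritic cells in this difference was not tested beyond these values.

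**Figure D5:**
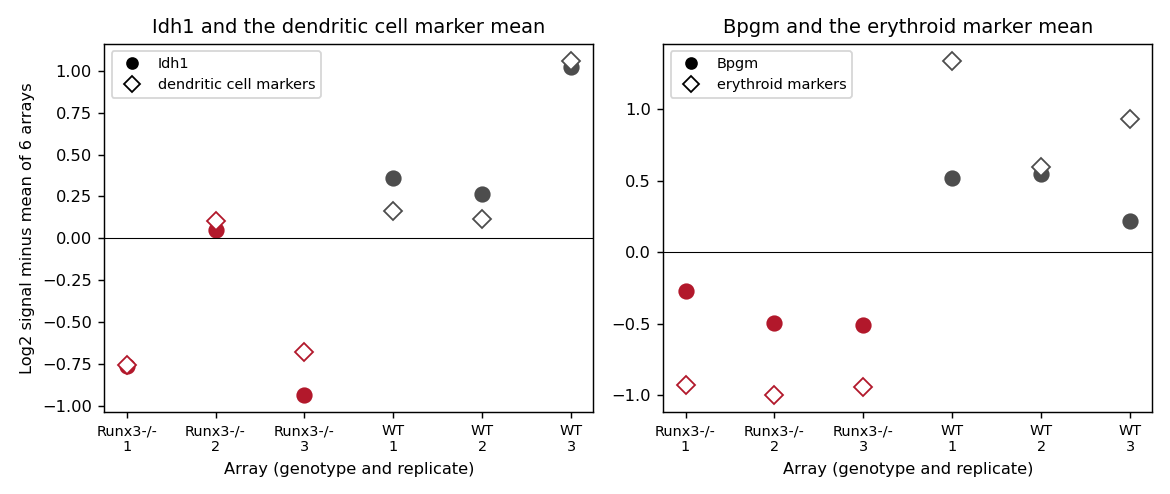
Idh1 beside the mean of 7 dendritic cell markers (left) and Bpgm beside the mean of 6 erythroid markers (right) in every array, as deviations from the mean over the 6 arrays (log2 scale). Idh1 and the dendritic cell markers share their highest array within each genotype (Runx3-/- replicate 2 and WT replicate 3), and Bpgm and the erythroid markers are both lower in all 3 Runx3-/- arrays than in the WT arrays. Among WT arrays, Bpgm is highest in replicate 2, where the erythroid markers are lowest.

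The mitochondrial NAD-dependent isocitrate dehydrogenase is built of 3 kinds of subunit, and its genes differed in direction. Idh3a, the catalytic alpha subunit, read 7.05, 6.81 and 6.96 in Runx3-/- arrays and 7.41, 7.26 and 7.30 in WT arrays. It fell by 0.38 on the log2 scale (difference -0.38 ± 0.10, limma adjusted p = 0.0448), or 1.30-fold, with no overlap. The call was lost when any 1 array was left out (adjusted p from 0.0541 to 0.147) and under quantile normalization or centring on array medians, at differences of -0.37 and -0.40. Idh3b, the beta subunit, had the lowest p among the TCA cycle genes that were not called. It read 9.22, 9.24 and 9.13 in Runx3-/- arrays and 8.75, 8.87 and 8.99 in WT arrays (difference 0.33 ± 0.098, adjusted p = 0.0673), and it was called higher with array weights or with an intensity trend in the variances (adjusted p down to 0.0399). Idh3g, the gamma subunit, overlapped, with a difference of -0.01, whose sign turned without WT replicate 2 (0.016) or Runx3-/- replicate 3 (0.057). The differences between subunits were not tested.

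The remaining TCA cycle genes stayed close to WT. Fh1, fumarate hydratase, read 6.71, 6.76 and 6.74 in Runx3-/- arrays and 7.02, 7.07 and 6.95 in WT arrays. These were tight and separate groups, yet the difference of -0.27 ± 0.086 did not pass (limma adjusted p = 0.0787), except in a fit without a filter (adjusted p = 0.0482). Suclg1, the shared subunit of succinyl-CoA ligase, differed by -0.29 and Mdh1, the cytosolic malate dehydrogenase, by -0.18, both without overlap. Overlapping arrays were found for citrate synthase (Cs, -0.09), Aco1 (-0.13), Idh2 (-0.09), Ogdh (-0.19), Suclg2 (-0.03) and Mdh2 (-0.06). The sign turned for Suclg2 without Runx3-/- replicate 3 (0.0093) and for Mdh2 without Runx3-/- replicate 2 (0.0075). For 11 of the 13 genes the 95% interval lay within 1.5-fold.

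In the pentose phosphate pathway all 4 tested genes had lower means in Runx3-/- cells (median difference -0.29), and 1 was called (25%, against 11.6% of all tested genes). This did not hold for the pathway beyond the given list. Of 6 further genes of it that were tested, 5 had higher means (median difference 0.08), and H6pd, described below, was called higher. Taldo1 encodes transaldolase, which links the sugar phosphates of this pathway to glycolysis in its non-oxidative branch. Taldo1 (10558903) read 6.00, 6.14 and 5.96 in Runx3-/- arrays and 6.50, 6.55 and 6.70 in WT arrays. The gap between the genotypes exceeded the range within either, and Taldo1 fell by 0.55 on the log2 scale (difference -0.55 ± 0.099, 95% interval -0.77 to -0.32, limma adjusted p = 0.011), or 1.46-fold. It was the most stable of the 6 calls, being called under 17 of the 18 alternatives that use the adjusted p, but it was lost in a fit without moderated variances (adjusted p = 0.0723) and under the 1.5-fold rule, which its difference did not reach. Its promoter window, printed above, held neither motif.

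Pgd, the second NADPH-forming dehydrogenase of the oxidative branch, read 7.47, 7.38 and 7.40 in Runx3-/- arrays and 7.91, 7.84 and 7.48 in WT arrays. WT replicate 3 all but met the Runx3-/- arrays, and the difference was -0.32 ± 0.13 (limma adjusted p = 0.136). Without WT replicate 3 it was -0.46 (adjusted p = 0.0288). Leaving out that array could only widen the difference, so that this fit is no support for a fall. Without any other single array Pgd was not called (adjusted p up to 0.351). Rpia, ribose phosphate isomerase, differed by -0.26 with no overlap, and Tkt, transketolase, averaged 7.55 ± 0.13 in Runx3-/- and 7.70 ± 0.14 in WT CD8-TC (SD, n = 3 each), a difference of -0.15 with overlap.

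A further 75 genes of the same pathways (isoforms, transporters, regulators, carriers and sensors) set these enzymes in context. Of them 68 had a probe set of their own and 49 were tested, and 7 were called (14.3%, against 11.6% of all tested genes). Higher in Runx3-/- cells were Eno2, Pck2, H6pd and Txnip, and lower were Bpgm, Slc16a1 and Myc. Eno2 and Pck2 passed the filter through Runx3-/- arrays only, so that no other direction was possible for them. None of the 13 further TCA cycle genes tested in limma, among them all 4 succinate dehydrogenase subunits, was called, and 0 had an unadjusted p under 0.05. Of these 13 genes, 11 had lower and 2 higher means in Runx3-/- cells (median difference -0.12). Leaving out 1 array at a time gave 2 calls (without Runx3-/- replicate 2), 3 (without WT replicate 1 or Runx3-/- replicate 3) or 4 (without WT replicate 2, WT replicate 3 or Runx3-/- replicate 1). Eno2 and Bpgm were called in all 6 of these fits.

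Eno2, the enolase best known from neurons, read 4.29, 4.43 and 4.56 in Runx3-/- arrays and 3.06, 3.24 and 3.30 in WT arrays. It rose by 1.23 ± 0.11 (limma adjusted p = 0.000374), or 2.35-fold, the largest difference among the 49 further genes tested. The WT values lay below the array medians, so that Eno2 passed the filter only through Runx3-/- arrays and had to differ. It was called under each of the 17 alternatives in which it was tested. Bpgm, whose product 2,3-bisphosphoglycerate sets the oxygen affinity of haemoglobin in red cells, read 5.54, 5.31 and 5.30 in Runx3-/- arrays and 6.33, 6.35 and 6.03 in WT arrays. It fell by 0.85 on the log2 scale (difference -0.85 ± 0.12, adjusted p = 0.00376). The mean of 6 erythroid markers was 4.17, 4.10 and 4.16 in Runx3-/- arrays and 6.44, 5.70 and 6.03 in WT arrays. Among WT arrays, Bpgm was highest in replicate 2, where this mean was lowest. The part of erythroid RNA in the Bpgm difference was not tested.

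The other lower calls were Slc16a1 and Myc. Slc16a1 encodes MCT1, a transporter of lactate and pyruvate. It read 6.77, 6.59 and 6.69 in Runx3-/- arrays and 7.52, 7.18 and 7.14 in WT arrays (difference -0.60 ± 0.12, limma adjusted p = 0.0184), and the call was lost without Runx3-/- replicate 2 (-0.55) or Runx3-/- replicate 3 (-0.60). Myc, the transcription factor that drives glycolytic genes in activated T cells, read 7.33, 7.20 and 7.27 in Runx3-/- arrays and 7.83, 7.84 and 7.62 in WT arrays. No array overlapped, and Myc fell by 0.50 on the log2 scale (difference -0.50 ± 0.099, adjusted p = 0.0161), a call kept without WT replicate 3 or Runx3-/- replicate 1 and lost when any of the other arrays was left out (adjusted p up to 0.0649).

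Txnip, a sensor of glucose supply that restrains its uptake, read 10.74, 10.66 and 10.87 in Runx3-/- arrays and 10.35, 10.43 and 10.06 in WT arrays. It rose by 0.48 ± 0.12 (limma adjusted p = 0.0401), and the call remained without WT replicate 2 only (0.55, adjusted p up to 0.117 in the other 5 fits). H6pd, the endoplasmic reticulum counterpart of glucose-6-phosphate dehydrogenase, read 5.31, 5.48 and 4.92 in Runx3-/- arrays and 4.71, 4.69 and 4.65 in WT arrays. It rose by 0.56 ± 0.14 (adjusted p = 0.0404), with the WT arrays close together and the Runx3-/- arrays spread, and it stayed called without Runx3-/- replicate 3 only (0.71, adjusted p = 0.0117). Pck2, the mitochondrial phosphoenolpyruvate carboxykinase, read 3.69, 3.72 and 3.62 in Runx3-/- arrays and 3.36, 3.34 and 3.31 in WT arrays. It rose by 0.34 ± 0.085 (adjusted p = 0.0366). The WT values lay below the array medians, so that Pck2, like Eno2, passed the filter only through Runx3-/- arrays and had to differ, and it was not called when any 1 array was left out (adjusted p from 0.0646 to 0.107).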

How the data were processed

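Expression was measured in 6 samples of resting splenic CD8-TC, 3 Runx3-/- and 3 WT, grouped by their titles and genotype labels. The authors deposited log2 values, 1 table for all arrays, which according to the methods were made in Partek Genomics Suite by RMA with a GC correction. Its version and the genome build were not stated in what was read here. RMA compresses the differences of dim probe sets. The main results use these values as they stand, without a detection call, and the number of arrays limits the precision.

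GEO's platform annotation gave 1 gene to 21789 of 35399 probe sets and several to 1621, which were not named except for Gapdh and Hk1. Of a gene's probe sets the brightest was used, and a gene was tested if it reached the array median in at least 1 array. Locus was judged from the chromosomes (RefSeq, GRCm38.p6) of the 20 nearest-numbered probe sets: 689 of 21698 had neighbours mostly on another chromosome, and 249 tested genes changed probe set when those were left out. That table's coordinates are left out, since the array's build is unnamed.

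Differences were tested two-sided with limma 3.58.1 (R 4.3.3; lmFit, eBayes, no covariates) and Benjamini-Hochberg adjustment over 9924 genes at 0.05, after a test on simulated data. Errors are SD over 3 mice or limma's SE. Values per array are given for called genes and for the gene of lowest p among the rest of each step. Other genes with array values (Pfkp, Pdk1, Fh1, Hk1, Gapdh, Itgax, Pfkfb3, Hk3) were added after their values were seen. The members and lists were chosen with earlier results of these data known. Alternatives were quantile normalization, array centring, other filters, means of probe sets, other variance models, array weights, a replicate block, the 1.5-fold rule, leaving out each array and, added after seeing the data, own-locus probe sets and leaving out WT replicate 3 with Runx3-/- replicate 2.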

Additional observations from a re-analysis of the deposited data

How the results depend on the processing

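Against 6 of 34 genes called (2 higher, 4 lower), a fit without moderated variances called 0 (0 higher, 0 lower; 178 of all tested genes, against 1154), and the 1.5-fold rule 1 (0 higher, 1 lower). Leaving out 1 array gave 1 to 4 calls (0 to 2 higher, 1 to 2 lower) and 619 to 920 over all genes. Leaving out WT replicate 3 and Runx3-/- replicate 2 together gave 3 (1 higher, 2 lower) and 717 over all genes. Higher calls were 1 with arrays centred on their medians, without a filter, with the filter in all 6 arrays, and with own-locus probe sets. The further genes gave 7 calls, but 2 without moderation, 4 under the 1.5-fold rule, 2 to 4 without 1 array and 4 without both arrays. The median difference of -0.09 ranged from -0.12 (without Runx3-/- replicate 1) to -0.040 (without Runx3-/- replicate 3).

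Same-numbered arrays did not uniformly deviate together (correlations 0.18, 0.032 and -0.00014), and not every array correlated best with its own number. The main fit did not pair the arrays, and whether same-numbered samples share more than a number is unknown here. A replicate block gave 2 calls (Idh3a and Taldo1; 0 higher, 2 lower) and 1084 over all genes.

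Signs turned for Hk1 (0.038 with mean probe sets, 0.19 at its own locus), Pgk1 (0.024 without both arrays) and Mdh2 (0.00085 without both arrays). Leaving out 1 array moved Aldoa from -0.070 to 0.022 (0.00044 without WT replicate 3, 0.022 without Runx3-/- replicate 3), Idh3g from -0.048 to 0.057 (0.016 without WT replicate 2, 0.057 without Runx3-/- replicate 3), Suclg2 from -0.089 to 0.0093 (without Runx3-/- replicate 3), Mdh2 from -0.11 to 0.0075 (without Runx3-/- replicate 2) and Runx3 from -0.012 (without Runx3-/- replicate 3) to 0.28. The cause was not tested.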

Other observations

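Regulators of glycolysis that were not called are given as values. Pfkfb3, whose product raises the activator of phosphofructokinase, read 5.98, 6.67 and 6.08 in Runx3-/- arrays and 6.54, 6.39 and 7.35 in WT arrays (difference -0.52, limma adjusted p = 0.251), with the same highest array in each genotype as Idh1. Hk3, a hexokinase known from myeloid cells, read 2.99, 3.16 and 3.35 in Runx3-/- arrays and 3.54, 3.61 and 4.27 in WT arrays, with a difference of -0.64 (adjusted p = 0.0709). Its Runx3-/- values all lay below the array medians, so that it passed the filter through WT arrays only and its direction was set by that.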
